A study of Macaca mulatta with 6 samples.

Results

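The laminin chain genes LAMA2, LAMA4, LAMA5, LAMB1, LAMB2 and LAMC1, the nidogen genes NID1 and NID2 and the perlecan gene HSPG2 were looked up by symbol in the deposited expression table. Of these 9 genes 8 had rows, among 24932 genes in all, and LAMA5 was not analysed here. The samples were RF/6A cells, a rhesus macaque line labelled as choroidal endothelial, grown to confluence on porous culture inserts. The cells received 50% normal human serum, in which complement is active, or 50% human serum inactivated by heat, for 4 hours, with 3 libraries of polyadenylated RNA per serum and no untreated cells. An effect of complement and one of any other heat-sensitive serum component cannot be told apart. The labels do not say whether the 3 libraries came from separate cultures, and the spread behind the p-values may then be technical only.

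Laminins are secreted heterotrimers of an alpha, a beta and a gamma chain that polymerise on the cell surface and start the basement membrane, the thin matrix sheet under endothelial and epithelial cells. Nidogens bind the gamma chain encoded by LAMC1 and connect the laminin network to type IV collagen, and perlecan, a large proteoglycan with heparan sulfate chains, binds laminin and nidogen and holds growth factors. In the choroid, the basement membrane of the capillaries forms the outer layer of Bruch's membrane, the sheet between these vessels and the retinal pigment epithelium.

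Values are FPKM, fragments scaled for transcript length and library depth, summed here over the transcripts of a gene. In replicates 2 and 3 of both sera the lowest values were all whole multiples of the value of 1 fragment within 0.1 fragments, which put the depth between 14609200 and 17793600 fragments, whereas 47.3% and 52.5% of such values were whole in replicate 1 of normal and of heat-inactivated serum, whose depth could not be read. Behind each of the 8 genes stood between 610 fragments (LAMA2) and 11766 fragments (LAMB1) per library in those 4 libraries, so the counting error of LAMA2 is the widest of the 8. Between 11589 and 11837 genes per library reached 1 FPKM, and correlations of log2(FPKM + 1) lay between 0.977 and 0.984 within a serum and between 0.934 and 0.949 across sera. Most endothelial markers were low. Of 12 endothelial markers 11 had rows and 4 reached a mean of 1 FPKM. These were FLI1, PECAM1, EGFL7 and ESAM, at 12.2, 7.95, 6.21 and 4.91 FPKM in normal serum. In heat-inactivated serum they averaged 6.58, 3.35, 5.47 and 2.63 FPKM. CDH5, VE-cadherin, was at most 0.0185 FPKM in normal serum and listed at 0 in all 3 heat-inactivated serum libraries. The summed endothelial markers lay between 31.1 and 35.8 FPKM in normal serum and between 18.4 and 19.6 FPKM in heat-inactivated serum, with 3 of the 4 tested higher. All 9 mural and fibroblast markers with rows, of 10 listed, reached a mean of 1 FPKM. Of 7 pigment epithelium markers only PMEL did. The 7 summed to 37.2 to 44.3 FPKM in normal serum and 37.9 to 42.2 FPKM in heat-inactivated serum.

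Of the 8 basement membrane genes 5 were lower in normal serum, 0 were higher and 3 did not pass the test (limma on log2(FPKM + 1), Benjamini-Hochberg adjusted p under 0.05 over the 11818 genes whose mean reached 1 FPKM). Both beta chain genes, the alpha chain gene LAMA4, NID2 and HSPG2 fell, while LAMA2, LAMC1 and NID1 did not pass. Within replicates 2 and 3 alone, without the libraries whose depth could not be read, 4 were lower and 0 higher. Of all genes tested 26.1% were called lower, 27.8% higher and 54.0% either way. The median log2 change was -0.34 over the 8 genes and 0.01 over all genes tested. In 6 of the 8 genes all normal serum libraries lay below all heat-inactivated serum libraries, which held for 30.5% of all genes, while groups without overlap in either direction made up 62.6%. These are bulk RNA values, so fewer cells of a kind and less RNA per cell cannot be told apart. Mural and fibroblast markers moved with the genes that fell. Of 9 tested, 8 were lower and CSPG4 was higher, and their summed level was 3201 to 3340 FPKM in normal serum and 6717 to 7267 FPKM in heat-inactivated serum, with none listed at 0. Most of that sum was COL1A1 and COL3A1. These 2 genes averaged 2026 and 795 FPKM in normal serum and 3870 and 1888 FPKM in heat-inactivated serum. The part of the mural and fibroblast markers in the result was not tested.

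**Figure D1:**
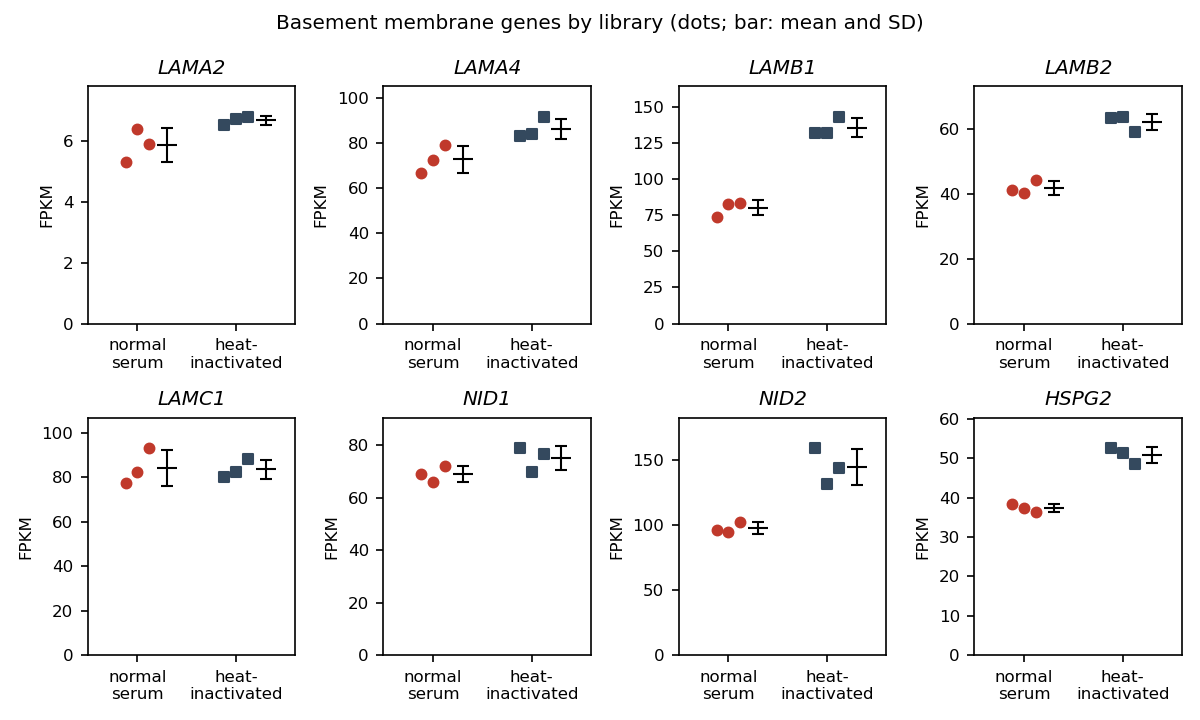
FPKM of the 8 genes in each library, with normal serum as red circles and heat-inactivated serum as dark squares, and the mean and SD (n = 3) as bars; the axes start at 0. LAMB1, LAMB2, NID2 and HSPG2 lie clearly lower in normal serum, LAMA2 and LAMA4 lie lower by little, and the groups of LAMC1 and NID1 overlap.

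FPKM are per length, so levels can be set side by side. In normal serum NID2 was the highest of the 8 genes, at 97.8 ± 4.27 FPKM (SD, n = 3), followed by LAMC1, LAMB1, LAMA4 and NID1 between 84.2 and 69.0 FPKM, each overlapping the next in its libraries. LAMB2, HSPG2 and LAMA2 followed without overlap. In heat-inactivated serum NID2 (145 ± 13.7 FPKM) and LAMB1 (135 ± 6.55 FPKM) stood above the rest and overlapped each other, as did LAMA4 and LAMC1. NID1, LAMB2, HSPG2 and LAMA2 followed without overlap. LAMB1 thus stood apart from LAMC1 and LAMA4 in heat-inactivated serum and overlapped both neighbours in normal serum. The place of LAMA4 rests in part on a transcript of 579 bases. Its transcript of 5469 bases alone averaged 57.2 FPKM in normal serum and 63.5 FPKM in heat-inactivated serum. In each serum that transcript lay below every NID1 library. Together the 8 genes summed to 468 to 517 FPKM in normal serum libraries and to 622 to 657 FPKM in heat-inactivated serum libraries. Within normal serum, replicate 3 held the highest value for 6 of the 8 genes.

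The beta chain genes had the clearest falls among the laminins. LAMB1, on chromosome 3 in the deposited table, encodes the beta1 chain found in most vascular laminins. It measured 74.0, 82.7 and 83.4 FPKM in the normal serum libraries, against 131, 132 and 143 FPKM in the heat-inactivated serum libraries. The groups lay far apart, with a gap wider than the range of either. The log2 change was -0.75 ± 0.07 (SE; limma, adjusted p = 1.39e-04), a level of 0.592 of the heat-inactivated serum mean. LAMB2, on chromosome 2, encodes the beta2 chain, known from mature vessels, the glomerulus and the neuromuscular junction. It measured 41.2, 40.2 and 44.3 FPKM in normal serum, against 63.5, 63.7 and 59.1 FPKM in heat-inactivated serum, again without overlap. Its log2 change was -0.56 ± 0.06 (SE; limma, adjusted p = 3.67e-04). Each of these genes has a single transcript in the table, so its value does not depend on how fragments were shared between isoforms.

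The gamma chain did not follow. LAMC1, on chromosome 1, encodes the gamma1 chain, which pairs with either beta chain in most laminins of the body. It measured 77.3, 82.3 and 92.9 FPKM in normal serum, against 80.0, 82.4 and 88.1 FPKM in heat-inactivated serum. The normal serum libraries spanned the whole range of the others. The log2 change was 0.01, with a 95% interval from -0.18 to 0.20 (limma, adjusted p = 0.936). The fall of LAMB1 lay outside that interval.

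Alpha chains carry the cell-binding end of the trimer. Of LAMA2 and LAMA4, the alpha chain genes among the 8, LAMA4 was the abundant one. LAMA4, on chromosome 4, encodes the alpha4 chain typical of endothelial and mesenchymal basement membranes. It measured 66.9, 72.5 and 79.2 FPKM in normal serum, against 83.2, 84.3 and 91.8 FPKM in heat-inactivated serum. The groups did not overlap but came close, and the log2 change was -0.24 ± 0.08 (SE; limma, adjusted p = 0.0311). The call was fragile. It ended within replicates 2 and 3 alone (adjusted p = 0.0735), when normal serum replicate 1 or 2 was left out (adjusted p = 0.0827 and 0.0772), and when heat-inactivated serum replicate 2 or 3 was left out (adjusted p = 0.0608 and 0.104). LAMA2, also on chromosome 4, encodes the alpha2 chain best known from muscle and peripheral nerve. It was the lowest of the 8 genes, at 5.30, 6.41 and 5.92 FPKM in normal serum, against 6.52, 6.73 and 6.79 FPKM in heat-inactivated serum. The groups just failed to touch, and the log2 change of -0.16 had a 95% interval from -0.36 to 0.04 (limma, adjusted p = 0.143).

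The nidogens differed in their values. NID2, on chromosome 7, encodes the nidogen with the narrower tissue range. It measured 96.0, 94.7 and 103 FPKM in normal serum, against 159, 132 and 144 FPKM in heat-inactivated serum. Every normal serum library was lower, and the log2 change was -0.56 ± 0.08 (SE; limma, adjusted p = 9.52e-04). NID1, on chromosome 1, encodes the widespread nidogen. It measured 69.0, 66.1 and 71.9 FPKM in normal serum, against 78.7, 69.9 and 76.6 FPKM in heat-inactivated serum, and the groups overlapped. Its log2 change was -0.12, with a 95% interval from -0.28 to 0.04 (limma, adjusted p = 0.171).

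HSPG2, on chromosome 1, encodes the perlecan core protein. It measured 38.5, 37.5 and 36.4 FPKM in normal serum, against 52.5, 51.4 and 48.5 FPKM in heat-inactivated serum. The groups were well separated, and the log2 change was -0.43 ± 0.06 (SE; limma, adjusted p = 7.87e-04).

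A pair of properties of the table bears on the size of these falls. Rescaling the libraries to the same total FPKM moved the median log2 change of all genes to -0.12 and that of the 8 genes to -0.48, and the share of higher genes among all calls was 51.6% as deposited and 34.7% after rescaling. Longer transcripts also had lower log2 changes over all genes, by a fitted -0.07 at the length of NID2 (4128 bases) and -0.18 at that of HSPG2 (8058 bases for its main transcript). With that trend removed, the log2 changes were -0.63 for LAMB1, -0.48 for NID2 and -0.43 for LAMB2, all still past the test. That of HSPG2 was -0.25 (limma, adjusted p = 0.0101), while the LAMA4 call ended (-0.12, adjusted p = 0.214).

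**Figure D2:**
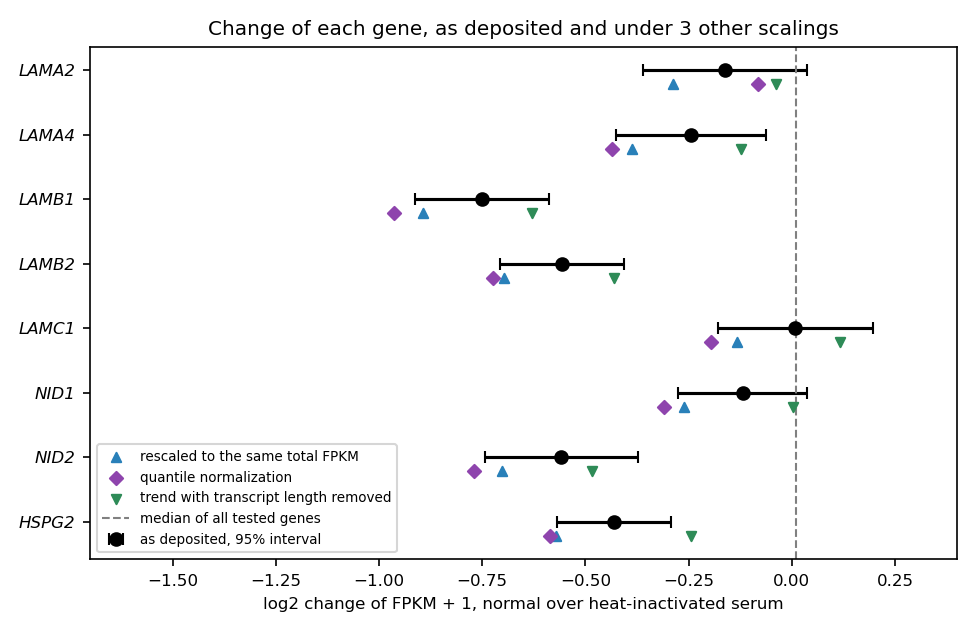
Log2 change of FPKM + 1, normal over heat-inactivated serum, for the 8 genes (black, with 95% interval from limma, n = 3 per serum) and under 3 other scalings (coloured markers); the dashed line is the median of all tested genes. LAMB1, at -0.75, lies lowest under every scaling shown, and LAMC1 changes sign between scalings.

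Ratios within a library do not depend on the scaling between libraries. The summed beta chain genes stood at 1.49, 1.49 and 1.37 times LAMC1 in normal serum, against 2.44, 2.37 and 2.29 times in heat-inactivated serum. The groups were far apart. The summed alpha chain genes LAMA2 and LAMA4 stood at 0.934, 0.959 and 0.916 times LAMC1 in normal serum, against 1.12, 1.11 and 1.12 times in heat-inactivated serum. NID1 made up 41.8%, 41.1% and 41.2% of the nidogen FPKM in normal serum, against 33.1%, 34.7% and 34.8% in heat-inactivated serum. These 3 measures separated the groups by more than the range within either. When only the most abundant transcript of each gene was counted, the alpha chain difference of -0.179 was -0.0748, and the NID1 share difference of 7.19 percentage points was 12.2. The share of LAMB1 in the beta chains was 65.6 ± 1.57% in normal serum and 68.5 ± 1.91% in heat-inactivated serum, separate but close. Without heat-inactivated serum replicate 3 the difference of -2.91 percentage points was -1.81. The share of LAMA4 in LAMA2 and LAMA4 together was 92.5 ± 0.594% in normal serum and 92.8 ± 0.258% in heat-inactivated serum, with overlap (SD, n = 3). LAMA1 and LAMA5 were not analysed here, so the LAMA4 share of all alpha chains is not known. Of these 5 measures the first 4 reached a two-sided exact permutation p of 0.1, the smallest that 3 libraries against 3 allow (adjusted p = 0.125 over the 5), and the LAMA4 share had p = 0.5 in the same exact test.

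**Figure D3:**
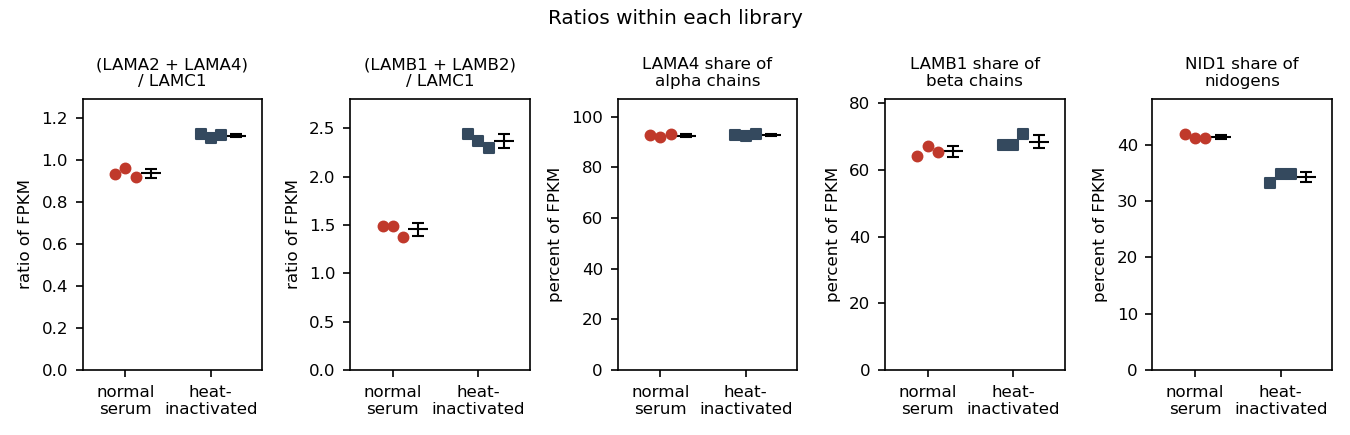
Ratios and shares of FPKM within each library, normal serum as red circles and heat-inactivated serum as dark squares, with mean and SD (n = 3) as bars; all axes start at 0. The beta chains over LAMC1 average 1.45 in normal serum and 2.37 in heat-inactivated serum. The LAMA4 share of the alpha chains, here LAMA2 and LAMA4 only, overlaps between sera.

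The transcripts of a gene did not all move alike in their values. Cufflinks, which the submitters name, divides fragments among overlapping transcripts by estimation, so values of single transcripts are less certain than their sum. The 8 genes have 21 transcripts in the table, 4 of which, all of HSPG2, were listed at 0 in every library. HSPG2, LAMA2, NID2 and LAMA4 have 2 transcripts each with a mean of at least 1 FPKM, and these were compared after the values had been seen.

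The HSPG2 transcript of 11040 bases measured 3.80, 3.40 and 4.15 FPKM in normal serum, against 10.7, 9.44 and 8.21 FPKM in heat-inactivated serum. It made up 10.1 ± 1.18% of HSPG2 in normal serum and 18.5 ± 1.73% in heat-inactivated serum (SD, n = 3). Its log2 change was -1.12 (limma over all 15719 transcripts with a mean of at least 1 FPKM, of which 18.6% were called lower; adjusted p = 0.00106). The HSPG2 transcript of 8058 bases, which carries most of the gene's level, measured 34.5, 33.9 and 31.8 FPKM in normal serum, against 41.8, 42.0 and 39.7 FPKM in heat-inactivated serum, a log2 change of -0.29 (limma, adjusted p = 0.00973). Both fell, and neither pair of groups overlapped.

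In LAMA2 the transcript of 9261 bases measured 1.50, 1.66 and 1.59 FPKM in normal serum, against 2.70, 2.79 and 3.03 FPKM in heat-inactivated serum (log2 change -0.57; limma, adjusted p = 0.00925). The LAMA2 transcript of 5562 bases measured 3.80, 4.75 and 4.33 FPKM in normal serum, against 3.82, 3.94 and 3.76 FPKM in heat-inactivated serum (log2 change 0.13; limma, adjusted p = 0.369). The longer one thus fell within a gene whose sum did not pass the test. In NID2 the transcript of 4128 bases measured 55.3, 60.3 and 69.9 FPKM in normal serum, against 115, 102 and 111 FPKM in heat-inactivated serum (log2 change -0.82; limma, adjusted p = 0.00155). The NID2 transcript of 2907 bases measured 40.7, 34.4 and 32.8 FPKM in normal serum, against 44.3, 29.4 and 32.4 FPKM in heat-inactivated serum, with overlap (log2 change 0.04; limma, adjusted p = 0.872). In LAMA4 the transcript of 5469 bases, at 57.2 ± 4.57 FPKM in normal serum and 63.5 ± 4.39 FPKM in heat-inactivated serum, did not pass (limma, adjusted p = 0.204). A LAMA4 transcript of only 579 bases fell to 14.7 ± 1.88 FPKM in normal serum, against 22.6 ± 2.85 FPKM in heat-inactivated serum (SD, n = 3; limma, adjusted p = 0.0127).

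The authors' deposited table gives log2 changes without the added 1, at -1.32 for the HSPG2 transcript of 11040 bases, -0.84 for the LAMA2 transcript of 9261 bases and -0.82 for the NID2 transcript of 4128 bases, each with a q-value of 2.23e-04. For the LAMA4 transcripts of 579 and 5469 bases the authors' deposited table gives q-values of 0.46 and 0.177.

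The difference between the 2 transcripts was tested as the change of their log2 ratio, longer over shorter, in limma over the 2250 genes with exactly 2 such transcripts. That change was -0.83 for HSPG2 (95% interval -1.25 to -0.41, adjusted p = 0.114), -0.70 for LAMA2 (-1.11 to -0.28, adjusted p = 0.141), -0.86 for NID2 (-1.38 to -0.33, adjusted p = 0.142) and 0.44 for LAMA4 (0.04 to 0.84, adjusted p = 0.277). None of the 2250 genes was called by limma (0%), while 364 had an unadjusted p under 0.05. The ratio of longer to shorter was lower in normal serum in 55.0% of the 2250 genes, with a median change of -0.06. With diffSplice, which pools the spread over the transcripts of a gene and called 9.61% of 7038 transcripts, HSPG2 (adjusted p = 0.00411), LAMA2 (adjusted p = 0.00327) and NID2 (adjusted p = 0.031) passed and LAMA4 did not (adjusted p = 0.131). On simulated data diffSplice showed an inflated rate of false calls. That simulation drew the transcripts of a gene independently, each with its own spread, which bears on a test that pools spread. How often diffSplice calls are false in the real data was not tested. The call on a shift between transcripts thus depends on the test, and the shift is given as values.

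**Figure D4:**
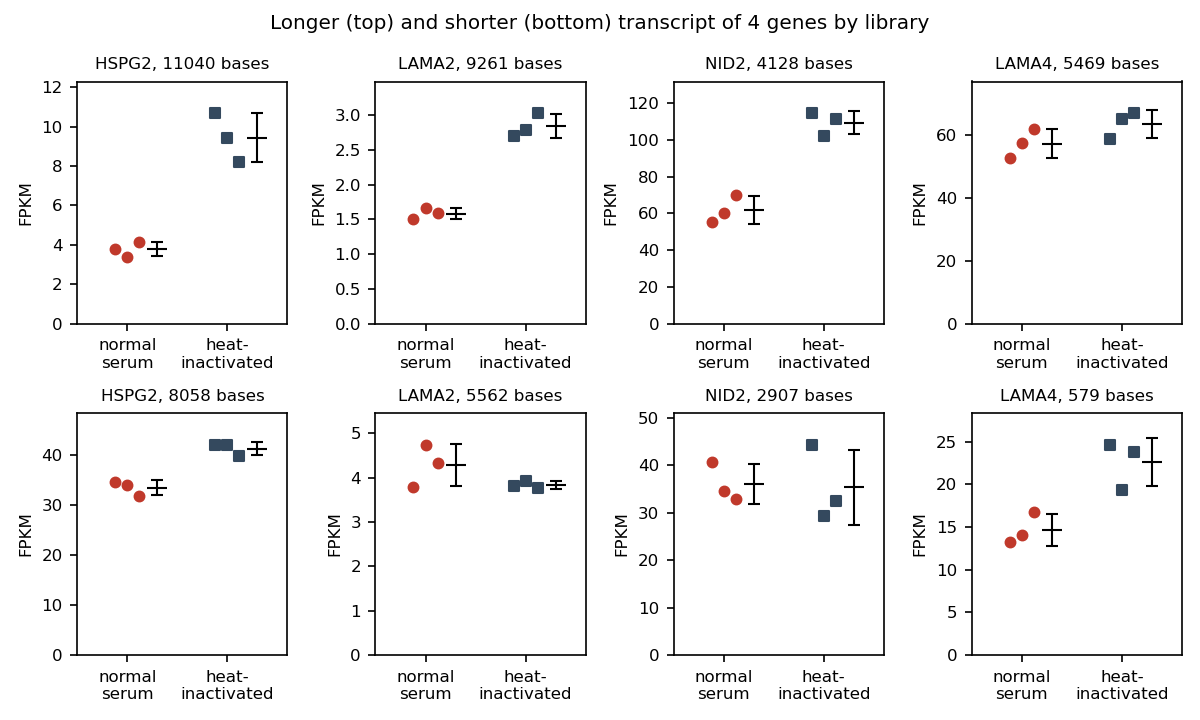
FPKM of the longer (top row) and shorter (bottom row) transcript of HSPG2, LAMA2, NID2 and LAMA4 in each library, normal serum as red circles and heat-inactivated serum as dark squares, with mean and SD (n = 3) as bars; the axes start at 0. In HSPG2, LAMA2 and NID2 the longer transcript is lower in every normal serum library, while the shorter transcripts of LAMA2 and NID2 overlap between sera.

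Laminin chain genes outside these 8 were looked up as well. LAMA3, which encodes an alpha chain of epithelial basement membranes, averaged 0.151 FPKM in normal serum and 0.131 FPKM in heat-inactivated serum, below the mean of 1 FPKM needed for a test. LAMB3, a beta chain gene of the same tissues, was listed at 0 in all 6 libraries. LAMB4 and LAMC3 were at or below 0.166 FPKM on average in either serum, and LAMA1 was not analysed here.

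Basement membrane partners were split, with 4 of 12 tested higher, 4 lower and a median log2 change of -0.12, against 54.0% of all genes called. SPARC, a secreted protein that binds collagen, fell to 1189 ± 97.7 FPKM in normal serum, against 1961 ± 106 FPKM in heat-inactivated serum (SD, n = 3; limma, adjusted p = 2.99e-04). COL4A5, a minor type IV collagen chain, fell to 0.474 of its heat-inactivated serum mean (limma, adjusted p = 2.71e-04). SMOC1, a relative of SPARC, and NTN4, a netrin that binds the gamma chain encoded by LAMC1, rose 1.37-fold and 1.38-fold (limma, adjusted p = 8.62e-04 and 0.00103). The main type IV collagen genes, named after their values were seen, rose as deposited. COL4A1 stood at 80.8 ± 7.10 FPKM in normal serum and 61.0 ± 2.87 FPKM in heat-inactivated serum, and COL4A2 stood at 284 ± 3.54 FPKM in normal serum and 239 ± 6.13 FPKM in heat-inactivated serum (SD, n = 3; limma, adjusted p = 0.00403 and 0.00484). The COL4A1 call ended once libraries were scaled to equal total FPKM (adjusted p = 0.0693) or quantile normalized (adjusted p = 0.0681). That of COL4A2 also ended under both (adjusted p = 0.340 and 0.280), and under the second its sign changed, to a log2 change of -0.06. Equal total FPKM left 2 of the 12 partners called higher.

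Laminin receptors also went both ways, with 5 of 12 tested higher, 3 lower and a median log2 change of 0.07, against 27.8% higher and 26.1% lower among all genes tested. A called share near that background is no result about the list. ITGA2, the alpha chain of an integrin for collagen and laminin, rose 3.95-fold, to 27.0 ± 4.02 FPKM in normal serum, against 6.83 ± 0.645 FPKM in heat-inactivated serum (SD, n = 3; limma, adjusted p = 2.91e-05). ITGA3, the alpha chain of a laminin-binding integrin, rose 1.72-fold, and SDC1, a syndecan whose heparan sulfate binds laminin, rose 1.85-fold (limma, adjusted p = 7.18e-05 and 4.11e-05). DAG1, which encodes dystroglycan, a receptor for laminin and perlecan, fell to 0.729 of its heat-inactivated serum mean (limma, adjusted p = 3.73e-04). At equal total FPKM, and likewise without heat-inactivated serum replicate 2, the number of receptors called higher was 3.

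Of 19 tested genes that build or edit heparan sulfate, the chain carried by perlecan, 4 were higher and 8 lower. Among all genes tested 27.8% were higher and 26.1% lower. The median log2 change was -0.01, and the share called in either direction was also near the 54.0% of all genes called. HS3ST3B1 and HS3ST3A1, closely related 3-O-sulfotransferase genes whose fragments may not be fully told apart, rose 3.68-fold and 3.15-fold (limma, adjusted p = 9.15e-05 and 2.22e-04). The 2-O-sulfotransferase gene HS2ST1 fell to 0.579 of its heat-inactivated serum mean, and the 6-O-sulfotransferase gene HS6ST2 to 0.581 (limma, adjusted p = 3.82e-04 and 4.95e-04). The HS6ST2 call ended when only its most abundant transcript was counted (adjusted p = 0.244).

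Of 13 tested proteases that can cut laminins, nidogens or perlecan, 6 were higher and 5 lower, against 27.8% and 26.1% of all genes, with a median log2 change of 0.33. MMP9, a gelatinase, and ADAMTS1, which cuts nidogens, rose 19.5-fold and 5.29-fold in mean FPKM (limma, adjusted p = 8.56e-07 and 1.38e-06). MMP3, a stromelysin, measured 9.16 ± 1.54 FPKM in normal serum and 0.369 ± 0.0978 FPKM in heat-inactivated serum (SD, n = 3; limma, adjusted p = 7.10e-06). It passed the filter on low values through normal serum alone, and its log2 change was 2.88 with 1 added to the FPKM, 1.39 with 5 added and 4.31 with 0.1 added, so no fold is given. PLAU, the urokinase that activates plasminogen, rose to 292 ± 15.6 FPKM in normal serum, against 134 ± 7.74 FPKM in heat-inactivated serum (SD, n = 3; limma, adjusted p = 2.27e-05).

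**Figure D5:**
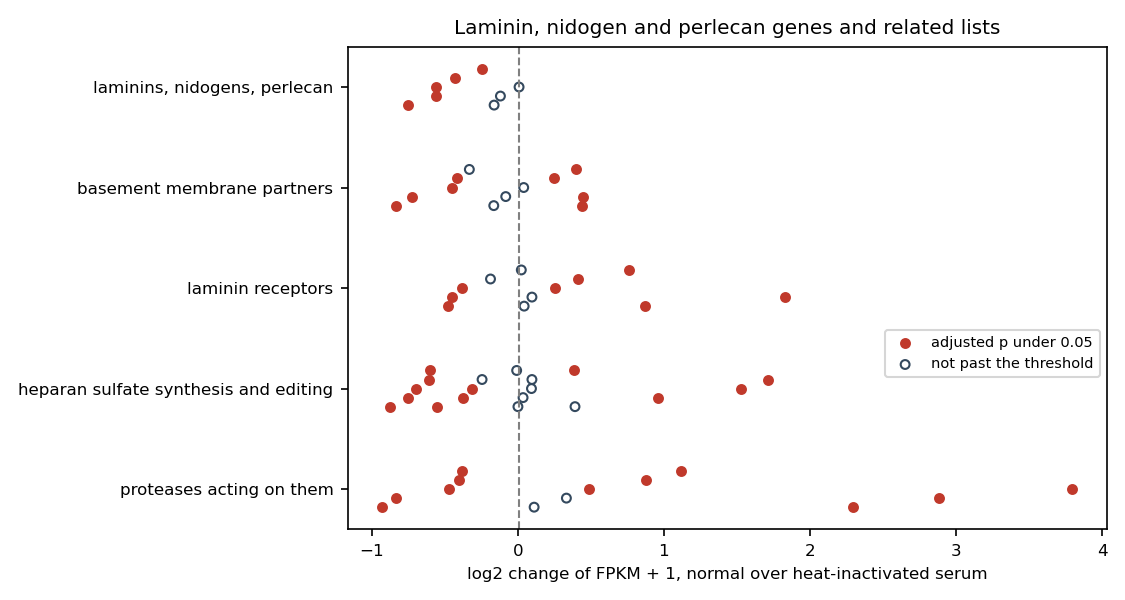
Log2 change of FPKM + 1, normal over heat-inactivated serum, of each tested gene of 5 gene lists (n = 3 libraries per serum), filled where limma's adjusted p was under 0.05; vertical offsets only separate points, and the dashed line is the median of all tested genes. The 8 laminin, nidogen and perlecan genes lie between -0.75 and 0.01, whereas each of the other 4 lists also holds genes called higher, up to 3.80 for MMP9.

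The 5 genes whose deviations over the 6 libraries were most like those of LAMC1 were PEX5, SNX9, ZNF585A, PAPSS2 and CHD8, with a root mean square difference between 0.0148 and 0.0297 on the log2(FPKM + 1) scale. With 6 libraries and 11818 genes to choose from, this is a description only.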

How the data were processed

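Polyadenylated RNA of 6 libraries was sequenced. The submitters' processing notes name TopHat2 2.0.7, Cufflinks 2.1.1 as well as Cuffdiff 2.1.1. The sources used here do not give a genome build, so no coordinates are printed. The authors deposited FPKM per transcript and library, and their own log2 fold changes and p-values per transcript; the deposited table also holds transcript lengths. FPKM were summed per symbol over 44605 transcripts. A table of gene names supplied symbols for 256 of 7008 identifiers that lacked one. The kit as named does not establish strand.

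FPKM are not counts, so no count model was used. The test was limma 3.58.1 (R 4.3.3), run with a variance trend and Benjamini-Hochberg adjustment on log2(FPKM + 1) for all genes whose mean reached 1 FPKM, without a batch term. A fold is mean FPKM in normal serum over that in heat-inactivated serum, and the added 1 makes log2 changes of low genes too small. The fits were checked on simulated data with far fewer changed genes than were called here. In that check diffSplice showed an inflated rate of false calls. The genes and lists were chosen with earlier results of these data known. Named from each related list were up to 4 genes with the smallest adjusted p; any other is marked, and 1 gene that meets this rule is not reported here. The fits of transcripts and of their ratios, and rescaling without transcripts under 300 bases, were added after seeing the data.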

Additional observations from a re-analysis of the deposited data

How the results depend on the processing

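Over 22 alternatives, LAMB1, LAMB2, NID2 and HSPG2 kept their direction and stayed past the threshold, with log2 changes of -0.96 to -0.63, -0.73 to -0.43, -0.82 to -0.48 and -0.60 to -0.25. The count of the 8 genes called lower lay between 4 and 7 and that called higher was 0. For the results below, the cause was not tested. LAMA4 was no longer called with its highest transcript (-0.15), within replicates 2 and 3 alone (-0.21), with the length trend removed (-0.12) and in 4 of 6 fits without a single library (-0.26 to -0.19; all 6 lay at -0.31 to -0.19). NID1 was called with quantile normalization (-0.31) and, rescaled on transcripts of at least 300 bases, at -0.29, as was LAMA2 (-0.31). NID1 turned to 0.0031 with the length trend removed, and LAMA2 to 0.13 with its highest transcript, neither called. LAMC1, never called, stood at -0.13 (total rescaling), -0.20 (quantile), -0.00085 (median of ratios), -0.16 (rescaling on longer transcripts) and -0.064 to 0.0671 without single libraries. COL4A2 stood at -0.0641 with quantile normalization. Of all genes, 3291 were called higher as deposited, 1952 after total rescaling and 2158 after rescaling on longer transcripts. The LAMA4 share difference lay between -0.55 and 0.033 percentage points without single libraries. With diffSplice the transcript ratios of HSPG2 (-0.83), LAMA2 (-0.70) and NID2 (-0.86) passed. Same-numbered libraries deviated together with correlations of 0.193 (replicate 1), 0.0333 and 0.00593, and 2 of 6 correlated best with their own number. With a term for the replicate 1 libraries, whose depth could not be read, 7063 genes were called. Whether those libraries shared a processing step was not tested. With a replicate block 6775 genes were called against 6381, and no call on the 8 genes changed, LAMA4 among them (adjusted p = 0.0101).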
